A study of Mus musculus with 6 samples.

Results

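Matrix metalloproteinases (MMPs) are zinc enzymes that cut collagen, elastin and other proteins of the extracellular matrix, and the tissue inhibitors of metalloproteinases (Timps) bind their active sites. The genes described here are 6 enzymes (Mmp8, Mmp9, Mmp12, Mmp13, Mmp14 and Mmp19) and 3 inhibitors (Timp1, Timp2 and Timp3). They were chosen by gene symbol, with earlier results of these data known, and all 9 were present among the 24394 symbols of the data. All 9 also passed the filter on low values, which required an average of 1 FPKM or more across the 6 libraries. FPKM are fragments scaled to transcript length and library depth.

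The cells were bone marrow-derived macrophages (BMMs) of C57BL/6 mice at postnatal day 28, grown with 50 ng/ml macrophage colony-stimulating factor for 7 days. Control macrophages (3 libraries) received no further treatment, and stimulated macrophages (3 libraries) were cultured for 24 h with 5 cartilage fragments per macrophage. Marrow and cartilage came from the same mice, and both groups were otherwise alike in strain, age and culture. No source states whether the 3 cultures of a group came from separate animals, so p-values measure only the spread between these libraries. The question behind the comparison was how macrophages respond to particles of cartilage, which can be released into a joint during wear or injury.

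Most MMPs are secreted as inactive precursors, and they become active when a propeptide is cut off, often by another protease. Mmp14 stays anchored in the cell membrane, where it cuts collagen directly and, with Timp2 as the link, activates the gelatinase Mmp2. Macrophages are a known source of several of these enzymes, above all of Mmp12, the macrophage elastase. Transcript levels give neither enzyme activity nor the state of the precursor.

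Each library rested on between 699000 and 776000 sequenced fragments, estimated from the deposited coverage. This is far below the number of mapped reads that the Methods state, and whether the files rest on all reads cannot be told from them. All 10 macrophage markers were above the filter, with Lyz2 between 26780 and 37370 FPKM in overlapping groups. On the gene sum 5 of the 10 were higher without overlap in stimulated libraries, beside 9.04% of all genes tested. They were Adgre1, Cd14, C1qa, C1qb and Itgam. Adgre1 (log2 0.59) and Cd14 (log2 0.63) passed as higher in limma (adjusted p = 0.00965 and 0.0388), beside 0.308% of all genes tested. The part of these markers in the levels of the 9 genes was not tested. Of 18 cartilage markers in the data, 12 were listed at 0 in every library, and their summed level was 2.4 to 5.21 FPKM in controls and 1.44 to 3.35 FPKM in stimulated libraries. The Methods give male mice, whereas Xist was at 19.82 to 23.59 FPKM in all 6 libraries and 4 genes of the Y chromosome (Uty, Kdm5d, Eif2s3y and Ddx3y) were at 0 in all of them. In bulk RNA, fewer cells of a type and less RNA per cell cannot be told apart.

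Among the 9 genes, Mmp14 and Mmp9 were higher with cartilage fragments on the gene sum, a scale explained below, with groups that did not overlap. Mmp12, Mmp8, Mmp13 and Timp2 were lower there, also without overlap. Of all genes tested on that scale, 9.04% were higher and 6.89% lower without overlap. Mmp14 had 2.09 times and Mmp9 2.574 times the control mean, while the genes that were lower had between 0.7434 and 0.8684 times theirs. On the symbol sum, the main scale, Mmp14 overlapped between the groups, Mmp19 was lower without overlap and 0 of the 9 passed in limma. Timp1 and Timp3 overlapped between the groups. Mmp14 and Mmp19 depended on how the rows of a gene were added up, and 3 scales were therefore used. The symbol sum adds the rows that carry the gene symbol, the gene sum also adds unnamed transcripts that the software assembled under the same gene identifier, and joined fragments do the same for every gene with depth-scaled sequenced fragments in place of FPKM and take the whole Mmp14 locus. The third scale was chosen after the values were seen. Depth-scaled fragments of the symbol rows alone, an alternative planned earlier, passed 0 of the 9 genes in limma. The cause of the calls on joined fragments was not tested.

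On the symbol sum, which was the main scale, none of the 9 genes passed the adjusted p of 0.05 in limma in either direction. Over the 10352 genes tested, 0.145% passed as higher and 0.0386% as lower, and 675 genes (6.52%) had an unadjusted p under 0.05. The groups did not overlap for 1 of the 9 genes as higher, against 8.73% of all genes tested, and for 5 as lower, against 6.13%. On the gene sum 1 of the 9, Mmp14, passed as higher and 0 as lower, where 0.308% and 0.0577% of 10393 genes did (9.19% at an unadjusted p under 0.05). On this scale 2 of the 9 were higher without overlap (9.04% of all) and 4 were lower (6.89%). On joined fragments 2 of the 9 passed as higher (1.5% of 10712 genes) and 1 as lower (0.737%). An unadjusted p under 0.05 was found for 11.1% of these genes. Without overlap, 2 of the 9 were higher (9.38% of all) and 5 lower (7.16%). The whole locus was taken for Mmp14 alone, so the shares over all genes are not like for like with it. With assembled rows added by the same rule for every gene in scaled fragments, 1 of the 9 passed as higher and 1 as lower. Mmp14 then had an adjusted p of 0.333 in limma. The median log2 difference of the 9 genes was -0.34 on the symbol sum, -0.20 on the gene sum and -0.27 on joined fragments, beside 0.02, 0 and 0 over all genes tested. An exact permutation test of 3 against 3 libraries cannot give a two-sided p below 0.1.

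**Figure D1:**
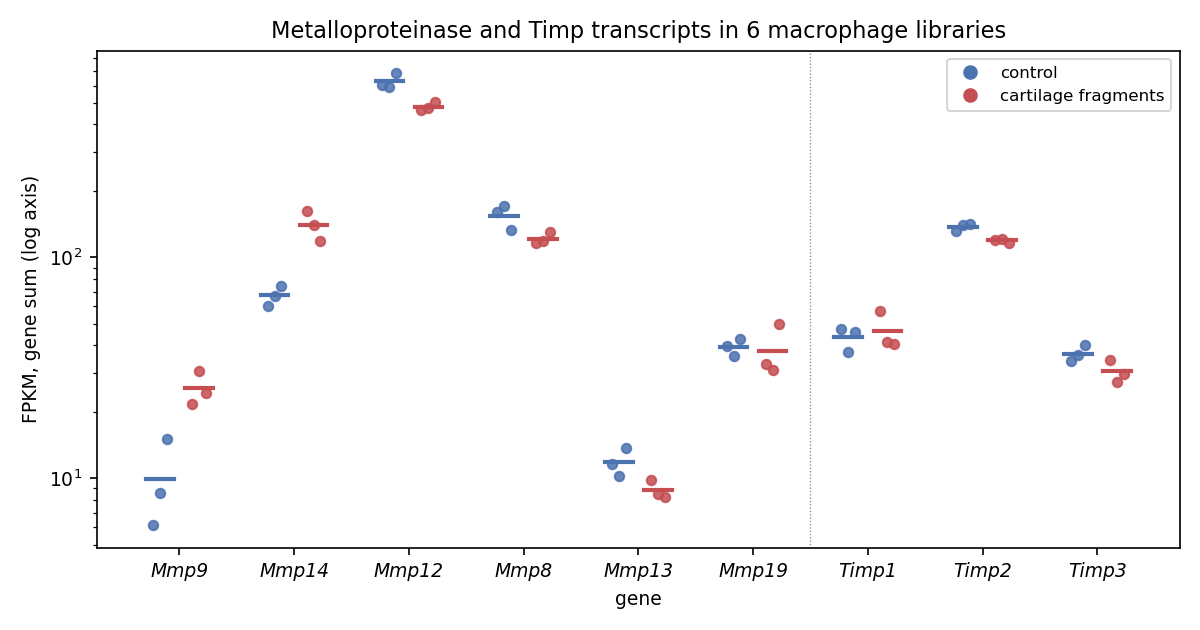
FPKM of the 9 genes (gene sum, log axis) in 3 control and 3 stimulated libraries, with a point for each library and a bar at each group mean; the dotted line divides enzymes from inhibitors. Mmp9 and Mmp14 sit higher in every stimulated library, Mmp12, Mmp8, Mmp13 and Timp2 lower, and Mmp19, Timp1 and Timp3 overlap.

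Mmp14, the membrane-type enzyme, had the smallest adjusted p of the 9 genes once all its rows were counted. Its reference transcript (NM_008608, mm10 chromosome 14, 54431604 to 54441258) stood at 60.33, 67.08 and 0 FPKM in control replicates 1, 2 and 3 and at 0, 0 and 119.1 FPKM in stimulated replicates 1, 2 and 3. The 3 values of 0 carried a status of low data. In those 3 libraries, assembled transcripts under the same gene identifier covered the gene instead, at 74.48 FPKM in control replicate 3, at 44.6 and 117.3 FPKM for 2 transcripts in stimulated replicate 1 and at 140.9 FPKM in stimulated replicate 2. They ran 892 to 944 bases past the end of the reference transcript.

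With these rows added, Mmp14 was at 60.33, 67.08 and 74.48 FPKM in the controls (67.3 ± 7.08, SD, n = 3) and at 161.9, 140.9 and 119.1 FPKM in the stimulated libraries (140.6 ± 21.41, SD, n = 3). The lowest stimulated library lay above the highest control. The log2 difference was 1.06 (SE 0.14, limma adjusted p = 0.0277), whereas the reference row alone gave -2.80 (SE 3.91, limma adjusted p = 0.831) with overlapping groups. On the gene sum the adjusted p in limma was between 0.024 and 0.136 with 1 library left out. It stayed under 0.05 without control replicate 3 (0.0471) or stimulated replicate 3 (0.024) and not without control replicate 1 (0.1), control replicate 2 (0.101), stimulated replicate 1 (0.136) or stimulated replicate 2 (0.122).

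In the other 3 libraries a separate assembled block of 788, 857 and 781 bases began 93 to 101 bases after the reference end, at 131.5 and 107.3 FPKM in control replicates 1 and 2 and at 229.2 FPKM in stimulated replicate 3. It carried another gene identifier, so the gene sum left it out there although the longer assembled transcripts included the same stretch. In the GENCODE M21 annotation the Mmp14 gene runs on to 54445364, and the block overlaps none of its exons. Adding the fragments of all rows from the gene start through this block gave 171.5, 173.8 and 181.1 fragments in the controls and 374.7, 334.2 and 287.8 in the stimulated libraries. In control replicates 1 and 2 and stimulated replicate 3, the 93 to 101 bases before the block belonged to no row. Any fragments lying only there were not counted. The sums of 526.5 (95% Poisson interval 482.4 to 573.4, for counting error only) and 996.7 (935.8 to 1060.6) had intervals that did not overlap. Scaled to library depth, the log2 difference was 0.98 (SE 0.0873, 95% interval 0.80 to 1.16, limma adjusted p = 7.95e-09), and the adjusted p stayed between 3.42e-09 and 4.07e-06 without each library in turn.

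**Figure D2:**
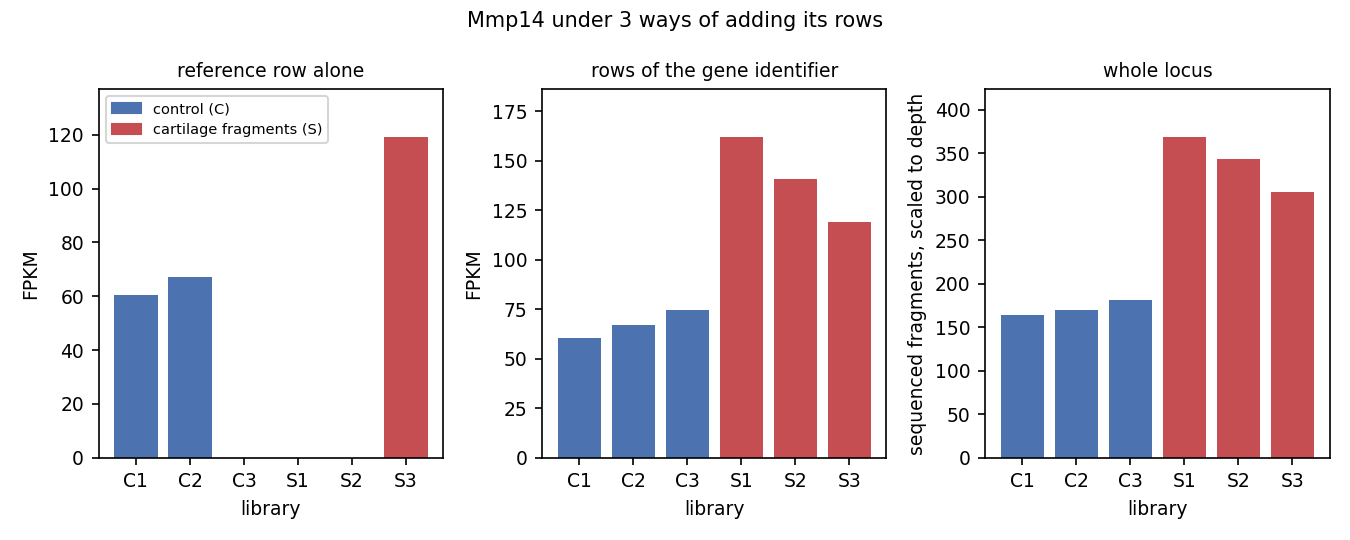
Mmp14 in control (C1 to C3) and stimulated (S1 to S3) libraries from its reference row alone (FPKM), from all rows of its gene identifier (FPKM) and from the whole locus (fragments scaled to a common depth), 1 bar a library. The reference row is at 0 in C3, S1 and S2, whereas the whole locus gives 163.9 to 181.0 depth-scaled ones in controls and 305.4 to 368.7 in stimulated libraries.

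Mmp9, a gelatinase that cuts denatured collagen and the type IV collagen of basement membranes, had the largest fold of the 9 genes. It was at 6.13, 8.553 and 15.10 FPKM in control replicates 1, 2 and 3 (9.929 ± 4.642, SD, n = 3) and at 21.69, 30.64 and 24.34 FPKM in the stimulated replicates (25.56 ± 4.595, SD, n = 3). All 3 stimulated libraries exceeded all 3 controls, and control replicate 3 held more than the other 2 controls. These levels came from 14 to 66 fragments a library, with 66.5 in the controls together (95% Poisson interval 51.5 to 84.5) and 164.4 in the stimulated libraries (140.2 to 191.6). The log2 difference of 1.44 (SE 0.36) had an adjusted p of 0.438 in limma on the symbol sum and of 0.154 on the gene sum. With fragments of the symbol rows alone it was 0.467 at the same log2 difference. On joined fragments, where assembled rows were added for all genes, it was 0.00398, between 7.79e-06 and 0.0351 without 1 of 5 libraries and 0.0665 without control replicate 2. Its transcript is NM_013599 on chromosome 2, 164948219 to 164955849.

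Mmp12 was the most abundant of the 9 transcripts in every library. It was at 604.2, 593.1 and 681.4 FPKM in the controls (626.2 ± 48.13, SD, n = 3) and at 465.2, 474.6 and 503.9 FPKM in the stimulated libraries (481.2 ± 20.15, SD, n = 3). The highest stimulated library was below the lowest control, with a mean 0.7685 times that of the controls. The log2 difference of -0.38 (SE 0.0718) had an adjusted p of 0.293 in limma on the symbol sum and of 0.102 on the gene sum. It rested on 4837 fragments in controls and 3550 in stimulated libraries, and with fragments of the symbol rows alone the adjusted p in limma was 0.182. On joined fragments it was 1.05e-05 and at most 0.000756 with 1 library left out.

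Mmp8 and Mmp13 are collagenases that cut the triple helix of fibrillar collagen. Mmp8 was first described in neutrophils, and Mmp13 is known for cutting the type II collagen of cartilage. Mmp8 was at 160.2, 170.1 and 132.4 FPKM in the controls (154.2 ± 19.59, SD, n = 3) and at 116.5, 118.3 and 129.9 FPKM in the stimulated libraries (121.6 ± 7.293, SD, n = 3). The groups touched closely, with control replicate 3 just above stimulated replicate 3. The log2 difference was -0.34 (SE 0.119, limma adjusted p = 0.698 on the symbol sum, 0.71 with fragments of the symbol rows alone and 0.0517 on joined fragments), and on joined fragments the adjusted p fell to 0.00574 without control replicate 3.

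Mmp13 was weaker, at 11.58, 10.28 and 13.75 FPKM in the controls (11.87 ± 1.752, SD, n = 3) and at 9.782, 8.502 and 8.195 FPKM in the stimulated libraries (8.826 ± 0.8417, SD, n = 3). Every stimulated library was below every control, but the values came from 14 to 25 fragments a library. The Poisson intervals of the sums, 51.5 to 84.6 for 66.5 control fragments and 34.9 to 62.9 for 47.4 stimulated fragments, overlapped. The log2 difference of -0.42 (SE 0.191) had an adjusted p of 0.777 in limma.

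Mmp13 (NM_008607, 7272514 to 7283333), Mmp12 (NM_008605, 7347374 to 7360461) and Mmp8 (NM_008611, 7558429 to 7568486) share a stretch of chromosome 9 that holds 9 protein-coding Mmp genes over 427072 bases in GENCODE M21, in the order Mmp13, Mmp12, Mmp1b, Mmp3, Mmp10, Mmp8, Mmp27, Mmp20 and Mmp7. Only Mmp13, Mmp12, Mmp8 and Mmp27 passed the filter on low values, and each of these 4 was lower in all stimulated libraries than in all controls, as were 6.13% of all genes tested on the symbol sum and 6.89% on the gene sum. Mmp27, at 7.17, 7.38 and 7.49 FPKM in controls and 5.56, 5.80 and 6.98 FPKM in stimulated libraries, had a log2 difference of -0.27 (limma adjusted p = 0.761, gene sum). Mmp1b, Mmp3, Mmp20 and Mmp7 were listed at 0 in every library, and Mmp10 reached at most 1.76 FPKM.

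**Figure D3:**
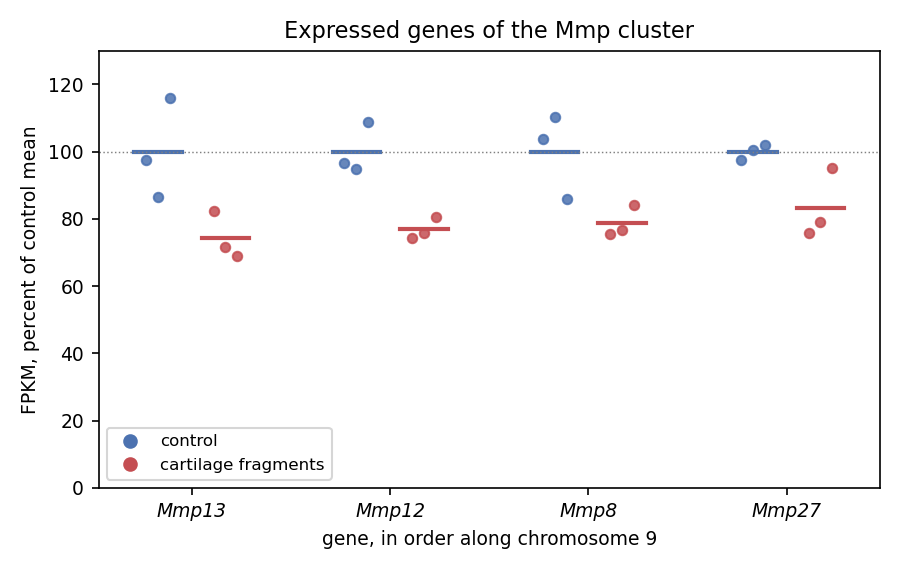
FPKM of the 4 genes of the chromosome 9 cluster that passed the filter, as a percent of the mean of the 3 controls, with a point for each library, a bar at each group mean and genes in chromosomal order. All 12 stimulated points lie below the controls of the same gene.

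The promoters of the 3 cluster genes among the 9 are shown because these genes were lower together. The sequences are those of RefSeq on GRCm38.p6, plus strand, 5′ to 3′, from 180 bases before the transcript start to 20 bases after it. Capitals mark matches to the AP-1 motif TGANTCA or to the TATA box TATAAA on either strand.
Mmp13, chr9:7272334-7272533: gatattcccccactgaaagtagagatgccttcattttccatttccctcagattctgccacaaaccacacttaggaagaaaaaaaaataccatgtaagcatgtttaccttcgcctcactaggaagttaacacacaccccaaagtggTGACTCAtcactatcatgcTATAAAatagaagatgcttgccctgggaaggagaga
Mmp12, chr9:7347194-7347393: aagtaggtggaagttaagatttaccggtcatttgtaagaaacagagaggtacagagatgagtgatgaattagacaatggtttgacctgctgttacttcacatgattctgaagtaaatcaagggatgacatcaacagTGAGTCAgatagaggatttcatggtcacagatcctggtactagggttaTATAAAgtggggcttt
Mmp8, chr9:7558249-7558448: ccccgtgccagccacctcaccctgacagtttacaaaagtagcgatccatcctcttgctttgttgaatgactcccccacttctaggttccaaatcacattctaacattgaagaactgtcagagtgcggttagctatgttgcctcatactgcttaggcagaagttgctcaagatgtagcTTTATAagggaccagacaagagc

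Promoter windows of 300 bases were found for 7 of the 9 genes (Mmp8, Mmp12, Mmp13, Mmp14, Timp1, Timp2 and Timp3). The AP-1 motif lay 35 bases before the start in Mmp13 and 44 bases before it in Mmp12, and the letters were in no window of the other 5. Of all 32851 promoter windows, 7.81% held it. TATAAA lay 16 bases before the start in Mmp13, 3 bases before it in Mmp8 (on the minus strand) and 4 bases after it in Mmp12, and 13.6% of all windows held it. A second Mmp12 window at another transcript start, which the files do not list, held neither. The 2 motifs did not overlap each other. These matches describe the letters and say nothing about binding.

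Mmp19, an enzyme that cuts several basement membrane proteins, is annotated with 2 transcripts on chromosome 10 (NM_001164197 and NM_021412, both ending at 128800824). Summed, they were at 39.75, 35.70 and 42.67 FPKM in the controls (39.37 ± 3.503, SD, n = 3) and at 32.77, 30.99 and 27.32 FPKM in the stimulated libraries (30.36 ± 2.782, SD, n = 3). The groups did not overlap, and the log2 difference was -0.37 (SE 0.141, limma adjusted p = 0.719). In stimulated replicate 3 an assembled transcript of 1203 bases held another 22.55 FPKM from 15.5 fragments. With it that library was at 49.87 FPKM, the groups overlapped and the log2 difference was -0.09 (limma adjusted p = 0.925). Joined fragments, which also count this transcript, were 83.23 to 101.1 in controls and 73.59 to 79.49 in stimulated libraries. There the groups did not overlap, and the log2 difference was -0.27 (limma adjusted p = 0.45). The split between the 2 transcripts moved from library to library, with NM_021412 at 0 FPKM in stimulated replicate 1 and holding the whole 42.67 FPKM in control replicate 3. The 3′ end of Mmp19 overlaps Tmem198b on the other strand, and the counting is not stated to have used the strand of the library kit.

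Among the inhibitors Timp2 had the highest level. It was at 131.3, 140.0 and 142.0 FPKM in the controls (137.7 ± 5.696, SD, n = 3) and at 120.5, 121.6 and 116.7 FPKM in the stimulated libraries (119.6 ± 2.553, SD, n = 3). The groups were narrow and did not overlap, with a log2 difference of -0.20 (SE 0.0746, limma adjusted p = 0.716). Its transcript is NM_011594 on chromosome 11, 118301061 to 118355411, and Cep295nl lies within the gene.

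Timp1, which also binds the precursor of Mmp9, was at 47.62, 37.48 and 45.76 FPKM in the controls and at 57.44, 41.28 and 40.40 FPKM in the stimulated libraries. The groups overlapped, and the log2 difference was 0.08 (SE 0.19, 95% interval -0.39 to 0.55, limma adjusted p = 0.915). The interval leaves room for a difference in either direction, and the values came from 19 to 29 fragments a library. Timp3, which binds to the matrix and also inhibits aggrecan-cutting proteases, was at 33.99, 36.11 and 40.08 FPKM in the controls and at 34.45, 27.19 and 29.70 FPKM in the stimulated libraries. Stimulated replicate 1 exceeded control replicate 1, and the log2 difference was -0.27 (SE 0.149, limma adjusted p = 0.795). Timp1 (chromosome X, 20870166 to 20874737, 3 transcripts summed) lies within Syn1, and Timp3 (NM_011595, chromosome 10, 86300412 to 86349505) within Syn3, each on the opposite strand of its host.

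**Figure D4:**
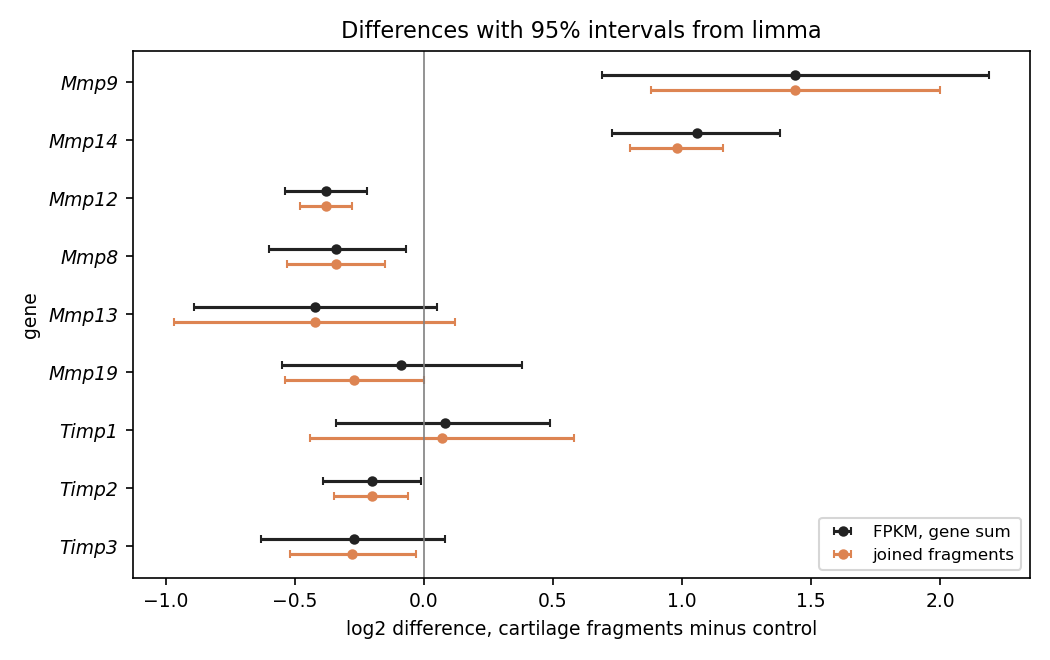
Log2 differences, cartilage fragments minus control, with 95% intervals from limma (n = 3 libraries a group) for the 9 genes on the gene sum of FPKM and on joined fragments. Mmp14 and Mmp9 lie above 0 on both scales. Timp1 and Mmp13 have intervals on both sides of 0 on both scales, and Mmp19 and Timp3 on the gene sum.

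By level per transcript length (FPKM, gene sum), the order of the controls was Mmp12 first, Mmp8, Timp2 and Mmp14 next, then Timp1, Mmp19 and Timp3, and Mmp13 and Mmp9 last. Mmp14 ranked 4 in every control. It ranked 2 in stimulated replicates 1 and 2 and 3 in stimulated replicate 3, where Mmp8, Mmp14 and Timp2 lay within 116.7 to 129.9 FPKM. Neighbours whose ranges overlapped within the controls were Mmp8 and Timp2, the 3 genes Timp1, Mmp19 and Timp3, and Mmp13 and Mmp9, so their order is not fixed.

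The ratio of Mmp14 to Timp2, taken within each library from the gene sums, was 0.46, 0.479 and 0.525 in the controls and 1.34, 1.16 and 1.02 in the stimulated libraries. Mmp14 was thus below Timp2 in all controls and above it in all stimulated libraries. The ratio of Mmp9 to Timp1 was 0.129, 0.228 and 0.33 in controls and 0.378, 0.742 and 0.603 in stimulated libraries, and that of Mmp12 to Timp1 was 12.7, 15.8 and 14.9 against 8.1, 11.5 and 12.5. Neither pair overlapped, although control replicate 1 and stimulated replicate 3 were close for Mmp12. These ratios hold the differences given above and are no further evidence of them.

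Of the summed FPKM of the 6 enzymes, Mmp12 held 68.8% ± 2.01 (SD, n = 3) in controls and 59.0% ± 1.37 in stimulated libraries. Mmp14 held 7.39% ± 0.489 and 17.3% ± 2.9, and Mmp9 1.08% ± 0.45 and 3.14% ± 0.595. The sum itself was 882, 885 and 960 FPKM against 808, 804 and 835 FPKM. The ratio of the 6 enzymes to the 3 inhibitors was 4.14, 4.14 and 4.21 in controls and 3.8, 4.23 and 4.47 in stimulated libraries, which overlapped.

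**Figure D5:**
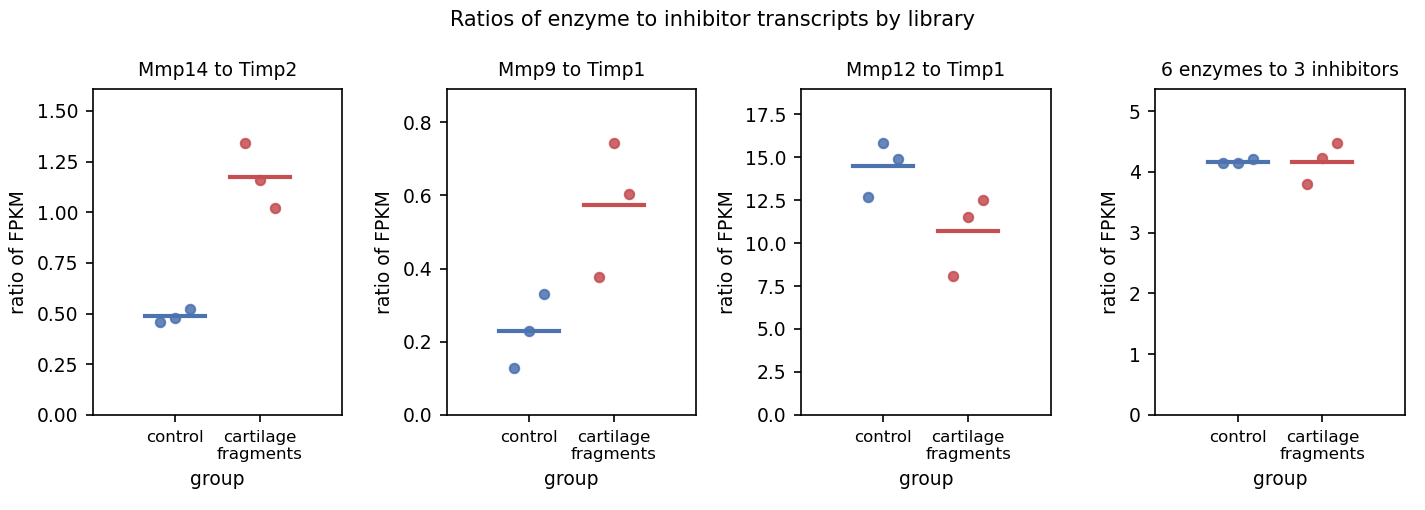
Ratios of FPKM (gene sum) in each library of the 2 groups, with a bar at each mean. Mmp14 to Timp2 is 0.46 to 0.525 in controls and 1.02 to 1.34 in stimulated libraries, and the ratio of all 6 enzymes to all 3 inhibitors overlaps.

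The rest of the MMP and Timp family was mostly at or near 0. Of 18 further family genes, 8 were listed at 0 in every library and 4 passed the filter (Mmp2, Mmp11, Mmp23 and Mmp27), of which 0 passed the adjusted p in limma on any of the 3 scales. Mmp2, the gelatinase that Mmp14 activates, was at 6.876, 9.426 and 9.582 FPKM in controls and at 8.990, 6.415 and 6.117 FPKM in stimulated libraries, near the level of Mmp13, and the groups overlapped (log2 -0.27, limma adjusted p = 0.794, gene sum). Mmp23 and Mmp27 were lower without overlap, beside 6.89% of all genes tested on the gene sum. Mmp23 was at 2.12, 3.27 and 6.63 FPKM in controls and at 1.09, 0 and 1.18 FPKM in stimulated libraries (limma adjusted p = 0.499, gene sum). These values rested on very few fragments. Scaled to depth, they were 1.93, 2.97 and 6.00 in controls and 0.99, 0 and 1.06 in stimulated libraries.

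Of 18 genes that activate, bind, inhibit or clear MMPs, 12 were tested and 0 passed, with a median log2 difference of 0.03 on the gene sum. The groups did not overlap for 4 of them, beside 15.9% of all genes tested in either direction. Cd44, a hyaluronan receptor that can hold Mmp9 at the cell surface, was at 98.7, 102.0 and 104.1 FPKM in controls and 124.4, 121.1 and 109.3 FPKM in stimulated libraries (log2 0.22, limma adjusted p = 0.538). Lcn2, a lipocalin that forms a complex with Mmp9, was at 36.1, 35.3 and 48.2 FPKM and 52.1, 54.3 and 62.7 FPKM (log2 0.51, limma adjusted p = 0.368). Serpinb2, an inhibitor of plasminogen activators, and Lrp1, an uptake receptor for protease complexes, were the 2 that were lower, with log2 differences of -0.45 and -0.13 (limma adjusted p = 0.488 and 0.667).

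Of 12 AP-1 and Ets factors, transcription factors known to act on Mmp promoters, 9 were tested and 0 passed, with a median log2 difference of 0.09. Of those tested, Ets2 alone had groups without overlap, beside 15.9% of all genes tested in either direction (gene sum). It was at 3.88, 3.19 and 4.87 FPKM in controls and at 5.60, 9.60 and 7.33 FPKM in stimulated libraries. Its log2 difference was 0.89 (limma adjusted p = 0.411).

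Markers of other cells moved in part with these genes. The summed level of 8 fibroblast markers was 201 to 218 FPKM in controls and 126 to 147 FPKM in stimulated libraries on the gene sum, and 3 of the 5 tested (Col1a1, Col1a2 and Postn) were lower without overlap, beside 6.89% of all genes tested. On joined fragments these 3 passed as lower in limma (adjusted p = 7.25e-06, 0.00488 and 3.03e-05), beside 0.737% of all genes tested. On that scale 4 of the 10 macrophage markers passed as higher, beside 1.5% of all genes tested. Col3a1 (log2 -0.70) and Dcn (log2 0.28) overlapped between the groups, and Pdgfra, Lum and Thy1 stayed below 1 FPKM throughout. The 7 osteoclast markers summed to 325 to 337 FPKM in controls and 271 to 292 FPKM in stimulated libraries. Most of this was Atp6v0d2, with group means of 282.8 and 216.5 FPKM. Atp6v0d2 was lower and Acp5 higher, Ctsk overlapped between the groups, and Calcr was at 0 in all libraries. On joined fragments Acp5 passed as higher and Atp6v0d2 as lower in limma (adjusted p = 0.0487 and 0.000312). The 11 neutrophil markers in the data, which bear on Mmp8 and Mmp9, summed to 899 to 1020 FPKM and 834 to 1220 FPKM, and 0 of the 8 tested had groups without overlap. Their part in the levels of the enzymes and inhibitors was not tested.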

How the data were processed

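RNA-seq of 6 libraries (3 control, 3 with cartilage fragments) was analysed. Per the labels and the paper's methods, the authors mapped 100-bp read pairs to the mouse genome mm10 (TopHat, Bowtie) and estimated transcripts of each library with Cufflinks. Versions are not given in the sources used here. The deposited FPKM stand per transcript, for 34535 reference transcripts and for 1453 to 1654 others that Cufflinks assembled within a library. The deposited coverage is the mean read depth of each transcript. Positions are on mm10, with 1 added to each start.

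FPKM were summed per symbol. Genes that averaged 1 FPKM or more were tested on log2(FPKM + 0.1) with limma 3.58.1 in R 4.3.3 (lmFit, eBayes with trend and robust; two-sided, Benjamini-Hochberg over all genes tested, threshold 0.05). Log2 differences are on that scale, and the added 0.1 understates the change of low genes without values of 0. A value of 0 in a library can make the log2 difference larger than the change of the means. Mmp14 on the symbol sum is such a case, at -2.80 with 0.9346 times the control mean. Fragments were estimated as coverage times effective transcript length over 100 bases, and 95.1% to 95.7% of weak values lay within 0.1 of a whole number. For fragments scaled to library depth (of the symbol rows alone, or joined with assembled rows for all genes), 0.1206 fragments were added and a mean of at least 1.2061 was required. Poisson intervals and fragment numbers cover counting error only, and few fragments limit the precision of weak genes.

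The 9 genes and the gene lists were chosen with earlier results of these data known. All 9 were named. Of the 3 pathway lists, genes past the threshold or with groups without overlap that averaged 5 FPKM or more were named, with the 3 genes nearest in pattern to Mmp9 and Mmp14; Mmp23 and the markers were added to the text once their values were known. Alternatives varied the pseudocount, filter, scaling, moderation, weights, rows, replicate block and libraries. Replicates of a group differed by 1.46 to 1.61 times the sampling noise (mean chi-square per gene), so none was counted as a copy of another. This cannot tell whether libraries shared a culture or an animal. Tables were made with Python 3.11.15.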

Additional observations from a re-analysis of the deposited data

How the results depend on the processing

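As deposited, Mmp13, Timp1 and Mmp9 rest on few fragments. Over 18 alternatives on the symbol sum, none of the 9 genes passed in limma, and all but Timp1 kept their direction, with Mmp14 between -6.21 and -1.10 from its reference row. Adding the assembled rows turned Mmp14 to 1.06, in scaled fragments to 1.18 (limma adjusted p = 0.333) and over the whole locus to 0.98. The gene sum and these scaled fragments both left out the block after its end where it stood as a separate row. Why their adjusted p differed was not tested. The members that passed were 1 higher with assembled rows, 0 on scaled fragments of the symbol rows alone, 1 higher and 1 lower with assembled rows in scaled fragments, and 2 higher and 1 lower over the whole locus.

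Genes passing over all tested, 15 higher and 4 lower on the symbol sum, came to 8 and 0 with 0.01 as pseudocount, 11 and 1 at a filter of 5 FPKM, 17 and 10 without trend and robust moderation, 11 and 2 on scaled fragments of the symbol rows alone, 32 and 6 with assembled rows in FPKM, 158 and 79 with assembled rows in scaled fragments and 161 and 79 with the whole Mmp14 locus as well (joined fragments). The cause of these changes was not tested.

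The replicate numbers are not stated to pair cultures. Deviations of same-numbered libraries on the symbol sum correlated at 0.0282, -0.00473 and 0.00831. Counting noise and values of 0 enter these deviations, so they cannot tell whether same-numbered cultures shared an animal or batch. The replicate block left 0 higher and 0 lower on the symbol sum, and 17 and 1 with assembled rows, where Mmp14 stood at 1.06 (limma adjusted p = 0.126).

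Leaving out 1 library at a time gave 0 to 18 genes higher and 0 to 3 lower on the symbol sum, and up to 140 and 76 on joined fragments. Over the 3 scales it left 0 to 2 of the 9 genes higher and 0 to 2 lower. Timp1 ranged from -0.10 to 0.17, turning negative without control replicate 2 or stimulated replicate 1. Mmp14 ranged from -6.21 to 1.17 over all scales and from 0.92 to 1.05 over the whole locus. Mmp19 ranged from -0.44 to 0.04, and was at 0.04 on the gene sum without stimulated replicate 2.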

Other observations

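Over the 6 libraries, the genes whose centred log2 levels (gene sum) lay nearest to those of Mmp14 among 7559 genes averaging 5 FPKM or more were Acp5, Gtf3c6 and Bmp1, with root mean square differences of 0.144, 0.186 and 0.187. Acp5, the tartrate-resistant acid phosphatase, was at 26.04, 26.79 and 27.14 FPKM in controls and at 55.11, 45.23 and 41.61 FPKM in stimulated libraries, with the 3 stimulated libraries in the same order as for Mmp14. Bmp1, a metalloproteinase that cuts procollagen, was at 3.292, 3.806 and 4.194 FPKM and at 8.680, 5.511 and 6.100 FPKM. Nearest to Mmp9 were Rtp4, Uchl1 and Isoc2b, with differences of 0.237, 0.268 and 0.31. Rtp4 was at 1.9, 2.938 and 3.971 FPKM in controls and at 8.848, 8.200 and 6.347 FPKM in stimulated libraries. These genes were picked for likeness over the same 6 libraries that hold both groups, and the values are a description.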
